A study of Mus musculus with 12 samples.

Results

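The immediate early transcription factors are a set of 10 genes, Egr1, Fos, Fosb, Jun, Junb, Jund, Atf3, Klf4, Klf6 and Nr4a1. The set was drawn up with earlier results of these data known, and its members were found by name, through the gene symbols that the array annotation gives to probes. All 10 had a probe among the 19057 genes named on the array. A probe was kept where its detection p-value was under 0.01 in at least 1 of the 12 arrays, and 9 of the 10 genes passed, of 11244 named genes with a kept probe in all. The exception was Nr4a1, an orphan nuclear receptor, whose probe was not detected in any array.

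Immediate early genes are transcribed within minutes of a stimulus such as a growth factor, a hormone, stretch or tissue injury, without the need for new protein. Their promoters are held ready by the serum response factor with its ETS partners and by CREB, which are activated by kinase cascades. The products include the FOS and JUN proteins, which dimerize as activator protein-1 (AP-1), the zinc finger factors EGR1, KLF4 and KLF6, and ATF3. In the heart and the kidney they are known for rising with mechanical load, ischemia and the handling of the organ at collection.

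Total RNA from hearts (HT) and kidneys (KID) of C57BL/6 mice was hybridised to Illumina mouse bead arrays. KO/HT and KO/KID came from PAI-1 knockout mice that lack plasminogen activator inhibitor 1, and WT/HT and WT/KID from wildtype mice. All animals were 12 months of age, no agent is named for any group, and each group had 3 arrays. The knockout was not limited to a cell type, the mice were bought from a supplier, and the frozen part of each organ was homogenised without sorting cells, so that fewer cells of a type and less RNA per cell cannot be told apart. Levels are given as log2 of the quantile normalized signal. This signal still holds the background of the array, so that the factors gave values of up to 6.69 in arrays where they were not detected, and log2 differences of dim probes are compressed. No count of molecules stands behind a signal, and 3 arrays a group limit the precision.

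Several facts of the arrays touch the values below. From 14281 to 16080 probes were detected per array. Of the cardiomyocyte markers, 5 of 6 were measured, and none of the 5 was detected in a kidney, while the 5 proximal tubule markers averaged 14.35 to 14.42 in the kidneys and 6.48 to 7.04 in the hearts. KO/HT replicate 3 stood apart from the other hearts, with Col1a1, a collagen of scar tissue, at 9.38 against 7.75 to 8.08 in the other 5 hearts. Xist, made only in female cells from the silenced X chromosome, gave a detected signal in 2 of 3 KO/HT and 3 of 3 WT/HT arrays and in no kidney. Eif2s3y, a gene of the Y chromosome, was detected in all kidneys and in 1 of 3 KO/HT arrays. The KO/HT array with Eif2s3y and no Xist was replicate 1. By these transcripts all kidneys and KO/HT replicate 1 were male and the other 5 hearts female, so that no wildtype heart came from the same mouse as a wildtype kidney. WT/HT against WT/KID was thus also female against male, and organ and sex cannot be told apart there. A probe of the targeted gene was not analysed here.

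The promoters of 9 of the 10 genes, all but Egr1, were taken from RefSeq, assembly GRCm38.p6, and the 250 bases before the start were searched on both strands. For Nr4a1 (chr15:101266596-101266845) and Fosb (chr7:19310046-19310295) the start used lies inside the full span of the gene. Other starts of these genes were not searched. The promoter of Egr1 was not analysed here. The core of the cAMP response element, TGACG, to which CREB and ATF proteins can bind, was found in 6 of the 9, namely Fos, Fosb, Junb, Atf3, Klf4 and Nr4a1, against 17.8% of 32851 promoter windows of the same length. The EGR element, GCGTGGGCG or GCGGGGGCG, was found in Fosb, Klf4 and Nr4a1, 3 of the 9, against 3.06% of all windows. The CArG box of the serum response factor, found in 1.47% of all windows, the full element TGACGTCA, found in 1.55%, and the AP-1 element TGACTCA or TGAGTCA, found in 4.46%, were not found in any of the 9. TGACATCA, a variant AP-1 element searched after the promoters had been seen, was found in Jun and Klf6 and in 2.93% of all windows. TGACGTCA holds TGACG, so a full element would be counted under both. A match of letters is not a bound site, and a missing match says only that these letters are not in this window. The Fos, Junb and Jun promoters are shown because the levels of these genes in KO/KID lay below those in WT/KID, and that of Klf4 because its level differed between hearts and kidneys. Capitals mark TGACG in Fos and Junb (chr12:85473640-85473889, plus strand, and chr8:84978749-84978998, minus strand), TGACATCA in Jun (chr4:95052223-95052472, minus strand), and both TGACG and the EGR element, read on the opposite strand, in Klf4 (chr4:55532476-55532725, minus strand).
Fos: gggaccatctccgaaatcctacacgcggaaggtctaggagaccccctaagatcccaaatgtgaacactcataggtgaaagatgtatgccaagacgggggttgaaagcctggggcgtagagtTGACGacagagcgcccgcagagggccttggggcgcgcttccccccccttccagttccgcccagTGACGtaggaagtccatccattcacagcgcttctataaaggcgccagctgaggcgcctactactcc
Junb: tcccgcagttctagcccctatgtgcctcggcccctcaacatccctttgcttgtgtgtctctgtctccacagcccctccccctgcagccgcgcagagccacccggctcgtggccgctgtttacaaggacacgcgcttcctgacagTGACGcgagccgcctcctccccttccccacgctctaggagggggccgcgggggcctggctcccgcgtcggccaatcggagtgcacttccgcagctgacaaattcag
Jun: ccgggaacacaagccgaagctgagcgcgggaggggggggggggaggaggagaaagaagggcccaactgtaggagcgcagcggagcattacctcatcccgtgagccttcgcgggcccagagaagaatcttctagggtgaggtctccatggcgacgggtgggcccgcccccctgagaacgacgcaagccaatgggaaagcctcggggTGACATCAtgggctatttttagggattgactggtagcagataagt
Klf4: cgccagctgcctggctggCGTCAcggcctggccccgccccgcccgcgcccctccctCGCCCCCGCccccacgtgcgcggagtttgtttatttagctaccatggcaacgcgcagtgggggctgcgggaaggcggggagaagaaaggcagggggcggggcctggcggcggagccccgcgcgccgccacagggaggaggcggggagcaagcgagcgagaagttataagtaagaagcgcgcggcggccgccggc

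In the Fos window TGACG lay 129 to 125 and again 66 to 62 bases before the start, in Junb 106 to 102, and in Klf4 232 to 228. The match in Jun lay 45 to 38 bases before the start. The EGR element of Klf4 lay 194 to 186 bases before its start.

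The comparison of PAI-1 knockout with wildtype kidneys asked which genes depend on genotype in the organ that the study set beside the heart. Egr1, a zinc finger factor induced by growth factors and stretch, was 3.49-fold lower in KO/KID. The AP-1 genes Junb, Fos and Jun lay on the same side without passing the test, and the differences of the remaining 5 factors lay between -0.17 and 0.00 on the log2 scale. Egr1 was at 8.62, 7.94 and 8.62 in the KO/KID arrays, against 9.92, 10.16 and 10.52 in the WT/KID arrays. Every knockout kidney lay below every wildtype kidney, by 1.30 or more. The means were 8.40 ± 0.39 in KO/KID and 10.20 ± 0.30 in WT/KID (SD, n = 3 each). The difference was -1.80 (SE 0.33, 95% interval -2.53 to -1.08), with a limma adjusted p of 0.0363 over the 19780 kept probes. The raw signals as deposited showed the same separation, at 519, 293 and 546 in KO/KID against 1177, 1227 and 1441 in WT/KID. The call was close to the threshold. It was lost without any 1 of the 6 kidneys, where the difference lay between -1.94 and -1.58 and the adjusted p between 0.0632 and 0.149.

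**Figure D1:**
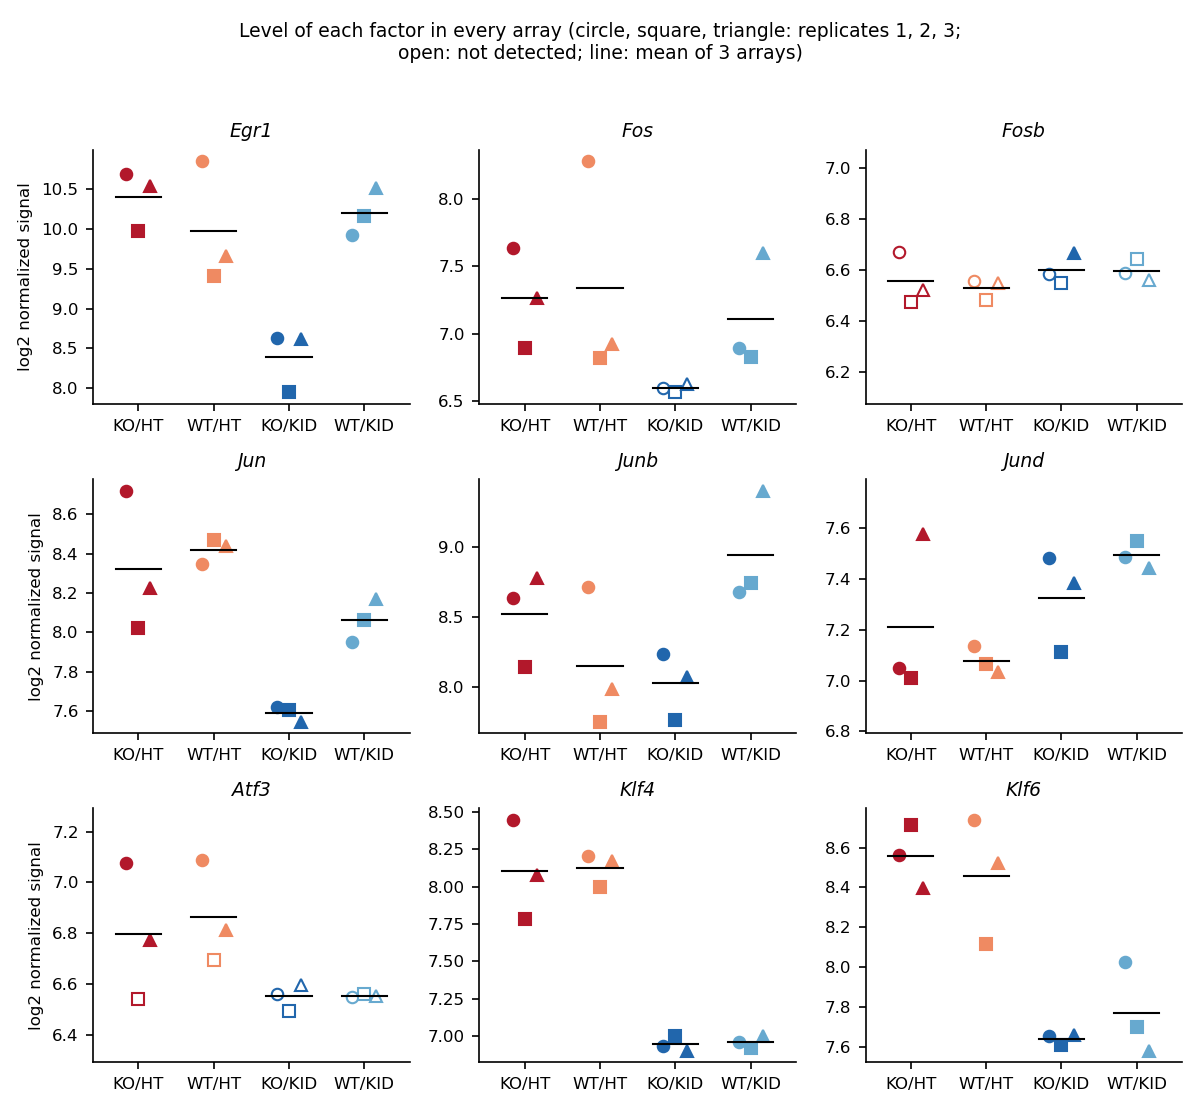
Log2 normalized signal (y axes, not starting at 0 and different between genes) of the 9 factors with a kept probe, in the 3 arrays of each group (x axis); open symbols are arrays in which the probe was not detected and lines are group means. Egr1 in the 3 KO/KID arrays lay between 7.94 and 8.62, below all other arrays, and Klf4 lay at 7.78 or more in every heart and at 7.00 or less in every kidney.

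Of the 9 factors tested, 1 was called in KO/KID against WT/KID, and it was lower there, while 0.303% of all kept probes were called lower and 0.546% in either direction. In 4 of the 9, Egr1, Fos, Jun and Junb, all KO/KID arrays lay below all WT/KID arrays, as did 8.27% of all kept probes. None of the 9 had all KO/KID arrays above, as 8.95% of all kept probes did. The median difference of the 9 was -0.17, against 0.00 for all kept probes. At the criteria of the study's methods, an unadjusted p under 0.05 and a change of at least 1.5-fold, 2 passed, Egr1 and Junb, against 0.344% of all kept probes in this direction.

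Junb, the AP-1 subunit that often restrains JUN, was at 8.24, 7.77 and 8.07 in KO/KID, against 8.68, 8.74 and 9.40 in WT/KID. The groups did not overlap, and WT/KID replicate 3 was the highest of the 12 arrays. The difference was -0.92 (SE 0.26, 95% interval -1.48 to -0.35) with an adjusted p of 0.184, so Junb did not pass over all probes. A further Junb probe was not detected in any array and was not tested.

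Fos, the partner of JUN in the classical AP-1 dimer, was not detected in any KO/KID array, where its signal stood at 6.60, 6.56 and 6.62. It was detected in all 3 WT/KID arrays, at 6.89, 6.83 and 7.60, with replicate 3 well above the others. Because the knockout side was not detected, only a bound can be given, and the WT/KID mean was at least 1.37-fold higher. The adjusted p was 0.704. Without WT/KID replicate 3 the difference was -0.26.

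Jun, the central AP-1 subunit, varied little between the arrays of each kidney group, while its KO/HT arrays spanned 0.70. It was at 7.62, 7.60 and 7.55 in KO/KID, against 7.95, 8.06 and 8.17 in WT/KID. The knockout arrays spanned 0.07 and all lay below the wildtype arrays. The difference was -0.47 (SE 0.13) with an adjusted p of 0.188.

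Jund, the constitutively expressed JUN family member, was at 7.48, 7.11 and 7.38 in KO/KID, against 7.49, 7.55 and 7.44 in WT/KID. The groups overlapped and the adjusted p was 0.781. Klf6, a zinc finger factor of injured epithelium and vessel wall, was at 7.66, 7.61 and 7.66 in KO/KID, against 8.03, 7.70 and 7.58 in WT/KID. The groups overlapped here too. Klf4, a factor that maintains quiescence in vascular cells, was at 6.90 to 7.00 in KO/KID and at 6.92 to 7.00 in WT/KID. Its 95% interval ran from -0.29 to 0.26. Atf3, a stress-induced repressor, was not detected in any of the 6 kidneys, and Fosb, a FOS relative, was detected only in KO/KID replicate 3.

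**Figure D2:**
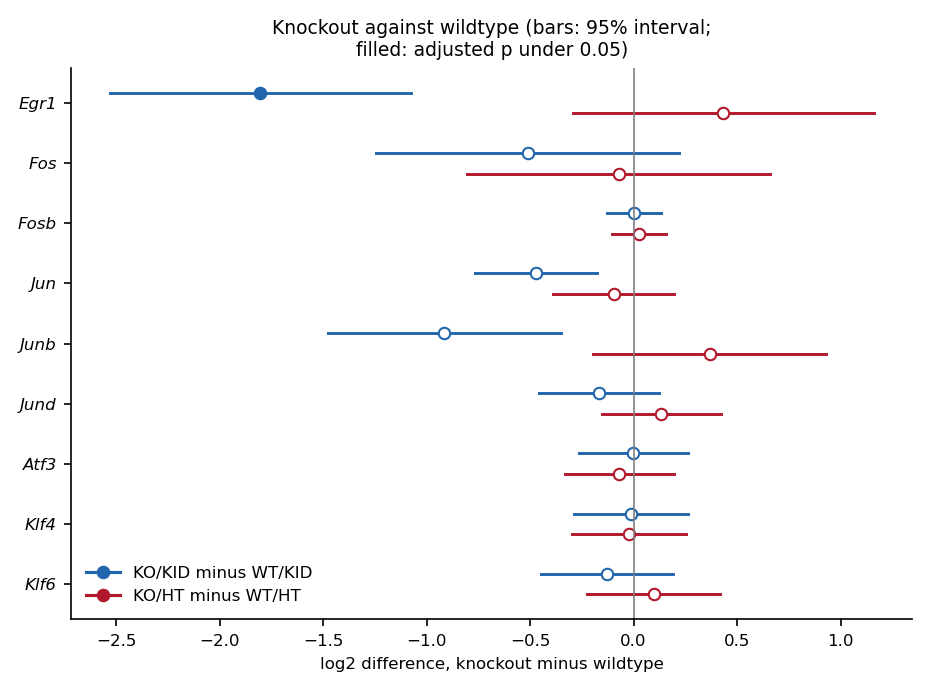
Difference between knockout and wildtype on the log2 scale (x axis) for each factor (y axis), in kidneys (blue, upper) and hearts (red, lower), with 95% intervals from limma; filled points had an adjusted p under 0.05. Egr1 in kidneys, at -1.80, is the only filled point, and the Junb and Jun intervals in kidneys lie below 0 but did not pass after adjustment over all probes. Fos was not detected in KO/KID, so its kidney value rests on the array background.

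The other genes of the immediate early program were read from lists that share no gene with the 10. Of 12 other immediate early transcription factors measured, none was called between the kidneys. Csrnp1, a nuclear factor first described as induced by AXIN1, was closest, at 7.66, 7.46 and 7.52 in KO/KID against 7.89, 8.09 and 7.94 in WT/KID, with a difference of -0.42 (SE 0.09) and an adjusted p of 0.0730. Egr2, the nearest relative of Egr1 on the list, had means of 6.62 and 6.79 in KO/KID and WT/KID, and its groups overlapped.

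Inhibitors and other early products come from genes induced beside the factors, and many of them end the response. Of 18 measured none was called, 14 had a negative difference, and 6 had all KO/KID arrays below all WT/KID arrays, as did 8.27% of all kept probes. The list's median difference was -0.09. Dusp1, a phosphatase that inactivates MAP kinases, was at 9.90, 9.63 and 9.75 in KO/KID, against 10.36, 10.78 and 11.17 in WT/KID. The groups did not overlap, and the difference was -1.01 (SE 0.24, adjusted p = 0.0952). Zfp36, which codes for the mRNA-destabilizing protein tristetraprolin, was at 9.62, 9.17 and 9.36 in KO/KID, against 10.09, 10.36 and 10.73 in WT/KID. Its difference was -1.01 (SE 0.21, adjusted p = 0.0644). Ier3, an early response gene that acts on cell survival, differed by -0.68 (adjusted p = 0.190).

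Of 15 known targets of EGR1 and AP-1, none was called, 3 had all KO/KID arrays below all WT/KID arrays and 1 had all above, against 8.27% and 8.95% of all kept probes. Ccnd1, the gene of cyclin D1, was at 11.77, 11.32 and 11.63 in KO/KID, against 12.07, 12.05 and 11.98 in WT/KID, a difference of -0.46 (adjusted p = 0.0576). The median of the targets was -0.01. Among 9 signalling genes measured, which code for kinases and promoter-bound factors, none was called, 8 had a positive difference and the median was 0.04. Elk4, an ETS partner of the serum response factor, differed by 0.28 (adjusted p = 0.143). Of 12 partners and corepressors none was called, and Nab1 and Nab2, the corepressors that bind EGR1, differed by 0.17 and -0.07.

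**Figure D3:**
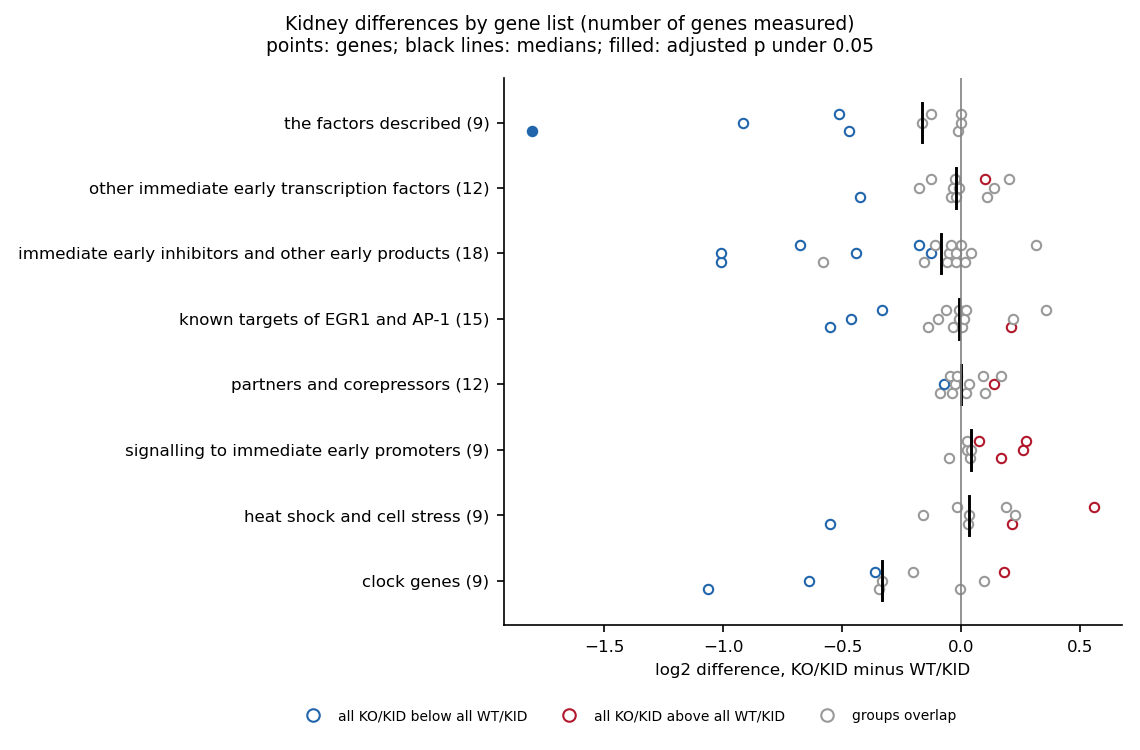
Difference between KO/KID and WT/KID on the log2 scale (x axis) for the genes of each list (y axis, with the number measured); colours show whether all knockout arrays lay below or above all wildtype arrays, black lines are list medians and filled points had an adjusted p under 0.05. Egr1 is the only filled point, and the points below -0.5 lie among the factors, the inhibitors and early products, the targets, the stress genes and the clock genes.

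Clock, stress and red cell genes were read beside these values in the kidneys. Dbp, a factor whose level follows the time of day, was at 11.20, 9.75 and 10.68 in KO/KID, against 11.76, 11.70 and 11.36 in WT/KID. It differed by -1.07 with an adjusted p of 0.241. Ciart, a repressor of the clock, had the smallest adjusted p of the list, 0.177, with a difference of -0.64. The median of the 9 clock genes was -0.33, with 3 of 9 below in all arrays and 1 above, against 8.27% and 8.95% of all kept probes. Of 9 heat shock and cell stress genes none was called. Hsp90aa1, a heat-induced chaperone, differed by 0.56 (adjusted p = 0.177) and Ddit4, an inhibitor of mTOR signalling, by -0.55 (adjusted p = 0.202). Hba-a1, a hemoglobin chain that marks red cells, was at 13.93, 13.08 and 13.49 in KO/KID and at 12.79, 13.13 and 12.79 in WT/KID, and the 3 red cell markers measured averaged 10.34 to 10.84 in KO/KID and 10.10 to 10.37 in WT/KID. Slc4a1, 1 of these 3, had means of 10.37 in KO/KID and 10.36 in WT/KID, against 6.97 in KO/HT and 6.94 in WT/HT. Its kidney signal may thus not be that of red cells alone. Proximal tubule markers averaged 14.39 to 14.42 in KO/KID and 14.35 to 14.38 in WT/KID. Endothelial markers averaged 8.63, 8.71 and 8.61 in KO/KID, against 8.35, 8.54 and 8.59 in WT/KID. The proximal tubule and endothelial averages did not overlap between the genotypes, but the nearest arrays were 14.39 against 14.38 and 8.61 against 8.59. Gene by gene, 1 of 5 proximal tubule, 1 of 4 endothelial and 1 of 3 red cell markers had all KO/KID arrays above, against 8.95% of all kept probes. Averages of the red cell, fibroblast, smooth muscle, macrophage, lymphocyte and platelet markers overlapped. The part of these genes in the Egr1 result was not tested.

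The comparison of PAI-1 knockout with wildtype hearts addressed the organ in which PAI-1 deficiency is known for fibrosis with age. None of the 9 factors was called there, none passed at an unadjusted p under 0.05, and the groups overlapped for every factor. In this comparison limma called 0.0657% of all kept probes, while 5.37% of them had all KO/HT arrays above and 5.16% all KO/HT arrays below the WT/HT arrays. Egr1 was at 10.70, 9.98 and 10.54 in KO/HT, against 10.85, 9.41 and 9.66 in WT/HT. WT/HT replicate 1 was the highest of all 12 arrays and the other WT/HT arrays lay below the KO/HT arrays, so the groups overlapped. The difference was 0.43 (95% interval -0.29 to 1.16, adjusted p = 0.827). It was 0.87 when WT/HT replicate 1 was left out and 0.15 when replicate 2 was.

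Fos showed the same array at the top. It was at 7.64, 6.90 and 7.27 in KO/HT, against 8.28, 6.82 and 6.92 in WT/HT. The difference of -0.07 was within 1 SE of 0, with an interval of -0.80 to 0.66. Junb was at 8.64, 8.14 and 8.78 in KO/HT, against 8.72, 7.75 and 7.99 in WT/HT, a difference of 0.37 (adjusted p = 0.795). Jund was at 7.05, 7.01 and 7.58 in KO/HT, against 7.13, 7.06 and 7.03 in WT/HT. Its difference of 0.13 rested on KO/HT replicate 3 and was -0.05 without it. Intervals for Jun, Klf4 and Klf6 ran from -0.39 to 0.20, from -0.30 to 0.25 and from -0.22 to 0.42.

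The spread among hearts was common to several factors. Replicate 1 was the highest WT/HT array for all factors except Jun, and the highest KO/HT array for Egr1, Fos, Fosb, Jun, Atf3 and Klf4, although Fosb was not detected in any heart. Replicate 2 was the lowest KO/HT array for all factors except Klf6. Red cell markers averaged 10.44, 9.54 and 9.38 in KO/HT and 10.13, 9.63 and 9.13 in WT/HT, again with replicate 1 highest in both. KO/HT replicate 1 was also the 1 male heart, while WT/HT replicate 1 was female like the other hearts. The part of blood and of sex in these levels was not tested.

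The lists held no called gene between the hearts either. Of 12 other immediate early factors, 11 had a positive difference, with a median of 0.08 against 0.00 for all kept probes, and Csrnp1 was closest with 0.22 (adjusted p = 0.571). Of 18 inhibitors and early products 12 had a positive difference, and Dusp1 differed by -0.01. Of the targets, Timp1, an inhibitor of metalloproteinases, had the smallest adjusted p, 0.504. Its mean was 8.56 in KO/HT, where the arrays spread from 7.87 to 9.73 (SD 1.01). In WT/HT the mean was 7.59, with arrays from 7.35 to 7.83. Among the clock genes, Ciart and Per1, repressors of the clock, differed by 1.03 and 0.62, each with an adjusted p of 0.0759.

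The difference between the kidney and the heart effects was tested itself, as the interaction of genotype and organ. By the sex transcripts all kidneys were male and all hearts but KO/HT replicate 1 female, so organ and sex cannot be told apart here. None of the 9 factors was called, against 0.101% of all kept probes. The Egr1 interaction, the heart difference minus the kidney difference, was 2.24 (SE 0.47, 95% interval 1.21 to 3.27) with an adjusted p of 0.135. That of Junb was 1.28 (SE 0.36) with an adjusted p of 0.319. Without WT/HT replicate 1 the Egr1 interaction was 2.68 and passed, with an adjusted p of 0.0288. In the other 20 of 21 alternatives it did not pass. Over all 21 it lay between 1.95 and 2.68, with an adjusted p of up to 0.351.

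The comparison of knockout hearts with knockout kidneys gave 4 called factors of 9, Egr1, Jun, Klf4 and Klf6, all higher in KO/HT. Between these organs 65.1% of all kept probes were called and 34.9% were called higher in the heart, so the share of the factors is near that of the array. With arrays only centred on their median, 3886 probes were called higher and 9214 lower in KO/HT, against 6901 and 5981 after quantile normalization. KO/HT replicates 2 and 3 were female by their transcripts and all KO/KID arrays male, so this comparison too is in part one of sex. In KO/HT replicate 1, which was male, Egr1, Jun, Klf4 and Klf6 lay above all KO/KID arrays, but this is a single array. The same 4 were called without that array, in a fit that set only female hearts against male kidneys. Organ and sex cannot be told apart in that fit, and the part of sex in these calls was not tested. Egr1 was 2.01 higher in KO/HT (SE 0.33, adjusted p = 1.74e-04), or 4.03-fold, and no arrays overlapped. In wildtype animals, WT/HT minus WT/KID was -0.23 for Egr1 (95% interval -0.95 to 0.50, adjusted p = 0.568). Both comparisons share their groups with those of genotype above, so the KO/KID arrays enter the kidney and the organ difference of Egr1 alike.

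Klf4 differed between the organs by a like amount in both genotypes. It was at 8.45, 7.78 and 8.08 in KO/HT, against 6.93, 7.00 and 6.90 in KO/KID. It was at 8.20, 8.00 and 8.17 in WT/HT, against 6.96, 6.92 and 7.00 in WT/KID. Hearts and kidneys were separated by 0.78 or more, and the difference was 1.16 in both the knockout (adjusted p = 4.18e-06) and the wildtype (adjusted p = 3.80e-06) animals. The interaction was -0.01 with an interval of -0.40 to 0.38. A further pair of kept Klf4 probes was detected in all hearts and in no kidney, and both were called in both genotypes. They were at least 1.30-fold and 1.74-fold higher in KO/HT than in KO/KID, and at least 1.35-fold and 1.79-fold higher in WT/HT than in WT/KID.

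Klf6 was at 8.56, 8.71 and 8.40 in KO/HT, against 7.66, 7.61 and 7.66 in KO/KID, a difference of 0.92 (adjusted p = 1.33e-04). It was at 8.74, 8.12 and 8.52 in WT/HT, against 8.03, 7.70 and 7.58 in WT/KID, a difference of 0.69 (adjusted p = 0.00116). Hearts and kidneys did not overlap in either genotype. A second Klf6 probe, detected in only 2 arrays, was not called in either, with differences of 0.16 and 0.07.

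Jun was higher in the hearts by 0.73 in the knockout (adjusted p = 3.81e-04) and by 0.36 in the wildtype animals (adjusted p = 0.0316). All heart arrays lay above the kidney arrays of the same genotype. With arrays only centred on their median the difference was 0.27 in the knockout (adjusted p = 0.0225) and 0.0016 in the wildtype animals (adjusted p = 0.989). The wildtype call was also lost with no filter on dim probes and without WT/HT replicate 2 or 3 or WT/KID replicate 1 or 2, with adjusted p up to 0.106. Fos, not detected in KO/KID, was at least 1.54-fold higher in KO/HT, with an adjusted p of 0.0971, and its WT/HT and WT/KID arrays overlapped.

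The organ comparison within the wildtype animals called 6 factors of 9, against 67.4% of all kept probes. Jun, Atf3, Klf4 and Klf6 were higher in WT/HT, as were 35.9% of all kept probes, and Junb and Jund were lower there, as were 31.4%. With arrays only centred on their median, 4692 probes were called higher and 7804 lower in WT/HT, against 7106 and 6217 after quantile normalization. Junb differed by -0.79 between WT/HT and WT/KID (SE 0.26, adjusted p = 0.0167), although its arrays overlapped, since WT/HT replicate 1 at 8.72 lay above WT/KID replicate 1 at 8.68. The Junb call was lost without WT/HT replicate 2 or 3 or WT/KID replicate 3, with differences of -0.59, -0.71 and -0.56 and adjusted p of 0.0801, 0.0585 and 0.0806. In the knockout animals Junb differed by 0.49 without passing (adjusted p = 0.112). Jund differed by -0.41 (adjusted p = 0.0148), where all heart arrays lay below all kidney arrays. In KO/HT against KO/KID it differed by -0.11, or by -0.30 (adjusted p = 0.0134) without KO/HT replicate 3. Atf3 was detected in 2 of 3 arrays of each heart group, at 7.08, 6.54 and 6.77 in KO/HT and 7.09, 6.69 and 6.81 in WT/HT. The WT/HT mean was at least 1.14-fold above WT/KID (adjusted p = 0.0370), a call lost in 8 of 16 alternatives, and the KO/HT mean at least 1.11-fold above KO/KID (adjusted p = 0.0931). The WT/HT arrays carried Xist and the WT/KID arrays Eif2s3y, and the part of sex in these differences cannot be told apart from that of organ.

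**Figure D4:**
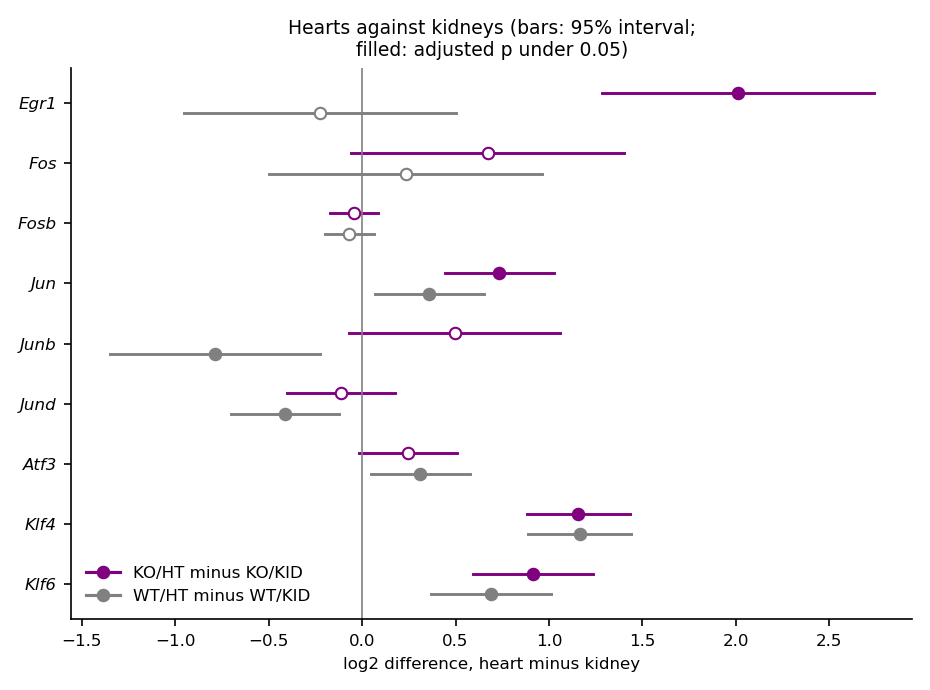
Difference between heart and kidney on the log2 scale (x axis) for each factor (y axis), in knockout (purple, upper) and wildtype (grey, lower) animals, with 95% intervals from limma; filled points had an adjusted p under 0.05. Klf4 lies at 1.16 in both genotypes, while Egr1 lies at 2.01 in the knockout and at -0.23 in the wildtype animals.

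Of 12 other immediate early factors, 8 were called higher and 1 lower in KO/HT than in KO/KID, where 34.9% of all kept probes were called higher. In WT/HT against WT/KID 6 were called higher, as were 35.9% of all kept probes, and 1 lower. Whether the list differs in this from other genes was not tested. Klf2, the factor of endothelium under flow, was higher by 1.91 and 1.72, and Srf, the serum response factor, by 1.66 and 1.68 in the knockout and the wildtype hearts. Cebpd, a factor of the acute phase, was lower in both, with differences of -0.45 and -0.38. Of 18 inhibitors and early products, 7 were called higher and 5 lower in KO/HT, and 4 were called higher and 7 lower in WT/HT. Endothelial markers averaged 9.32 to 9.51 in the hearts and 8.35 to 8.71 in the kidneys, over the 4 of 5 that were measured. They did not all go 1 way: 3 had a positive difference in each genotype, while Emcn was lower in the hearts. Its means were 10.26 in KO/HT against 10.65 in KO/KID, and 10.38 in WT/HT against 10.56 in WT/KID. The part of endothelium in the Klf2 and Klf4 levels was not tested.

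By the root mean square difference of profiles, each gene centred on its mean over the 12 arrays, the gene most like Egr1 was Dusp1, at 0.393 log2, against a spread of Egr1 itself of 0.890. It was followed among genes outside the set by Csrnp1 at 0.593, Dbp at 0.618, Alas1 at 0.635 and Ddit4 at 0.640. Of the factors, Fos, Junb and Jun ranked 2, 5 and 10 of the 11243 genes compared. Klf6 and Klf4 ranked 82 and 340, and Atf3, Fosb and Jund came further down, at 1028, 5258 and 5842. All of these profiles share the same 12 arrays.

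**Figure D5:**
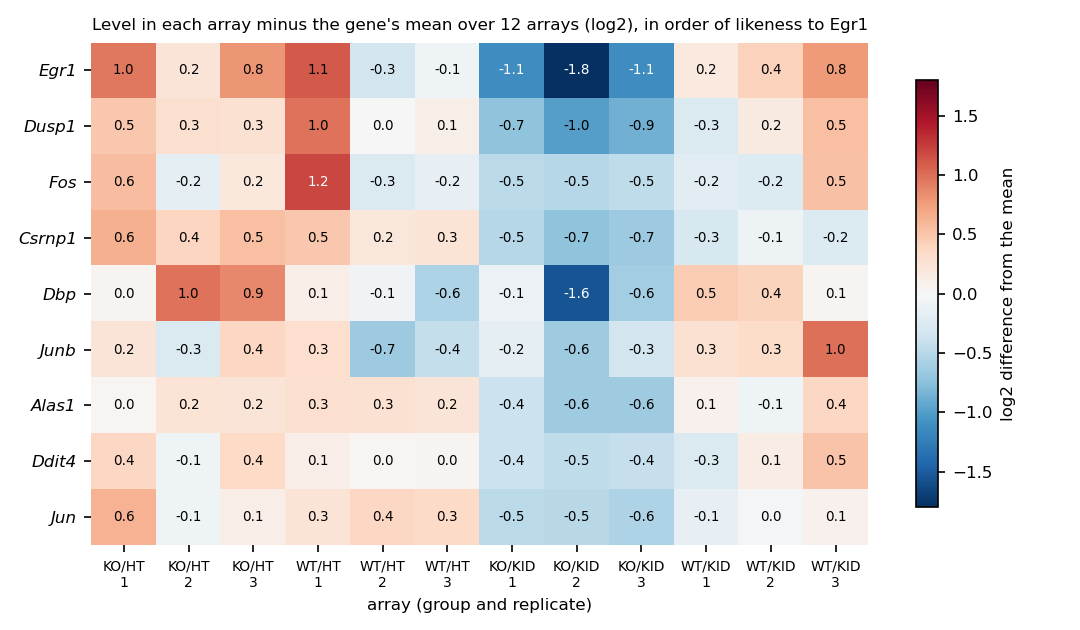
Level in each array minus the mean of the gene over all 12 arrays, on the log2 scale (colour and printed value), for Egr1, the 5 genes outside the set with the most similar profile and the factors Fos, Junb and Jun (y axis, in order of likeness), by array (x axis). All 9 genes lie below their mean in the 3 KO/KID arrays, and Dusp1 shares with Egr1 and Fos its highest value in WT/HT replicate 1. The genes are shown because their profiles over these same arrays are close to that of Egr1, so shared low KO/KID values follow in part from the choice.

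Dusp1 was at 11.11, 10.92 and 10.89 in KO/HT and at 11.60, 10.63 and 10.72 in WT/HT, so that its highest array was that of Egr1 and Fos. Alas1, the rate-limiting enzyme of heme synthesis outside red cells, was at 11.95, 11.70 and 11.70 in KO/KID, against 12.42, 12.26 and 12.71 in WT/KID. The kidney difference of Alas1 was -0.68 (SE 0.11) and passed, with an adjusted p of 0.0159, although the likeness to Egr1 that named it rests in part on the same arrays. Ddit4 was at 8.09, 8.02 and 8.06 in KO/KID, against 8.22, 8.61 and 8.99 in WT/KID, without overlap. It too was named here by a likeness to Egr1 that rests in part on these arrays.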

How the data were processed

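The authors deposited, for each of 45281 probes of the 12 arrays, a summary signal, an intensity on a linear scale that was not normalized between arrays (lowest value 71.7), with a detection p-value per array deposited by the authors. A second set of values for the same probes was normalized with lumi by quantiles, and these deposited linear intensity values were taken to log2 as an alternative. For lumi the version is not stated in the sources used here.

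The deposited intensities were quantile normalized and taken to log2, and 19780 probes were kept, those that 1 array or more detected (p-value under 0.01). Symbols were updated through Entrez identifiers to RefSeq GRCm38.p6, and 17073 kept probes had 1 symbol. A gene took the value of its kept probe with the highest mean. All 12 arrays entered 1 limma model (R 4.3.3, limma 3.58.1, and version 1.17.8 of data.table) of group means, which left 8 residual and added 3.91 prior degrees of freedom. Tests were two-sided, p-values were adjusted by Benjamini and Hochberg's method over all kept probes, and a gene was called at an adjusted p under 0.05. Where a group had no detected array, a fold is a bound against the lowest detected signal of its arrays. Such a bound is one on the measured means and does not allow for the spread between arrays. The fit was tested on simulated data.

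The 10 factors and the other gene lists were chosen with earlier results of these data known. Genes named from a list are among the 4 with the smallest adjusted p in that comparison. Nab2, Egr2, Dusp1 in hearts, Hba-a1 and Col1a1 were named with their values seen. The alternatives tried are given with their effect below. The sources name 3 mice per genotype and do not tie the arrays to them, whereas by the sex transcripts no wildtype heart and kidney came from 1 mouse. Protein sequences were not analysed here.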

Additional observations from a re-analysis of the deposited data

Results flagged for a closer look

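Ciart, a repressor of the circadian clock and no member of the set, was the only gene called for the interaction among the lists read beside the factors. Genes not called may differ too, and that of Dbp was larger, at 1.86, without passing (limma adjusted p = 0.248). Its interaction, the heart difference minus the kidney difference, was 1.67 (SE 0.25, limma adjusted p = 0.0305). It was at 7.68, 8.18 and 8.52 in KO/HT against 7.11, 7.29 and 6.88 in WT/HT, and at 6.83, 6.51 and 6.72 in KO/KID against 7.22, 7.46 and 7.30 in WT/KID. The kidneys were male and the hearts female apart from KO/HT replicate 1, so organ and sex cannot be told apart in this interaction.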

How the results depend on the processing

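Egr1 was called lower in KO/KID than in WT/KID, and this count of 1 was 0 with the authors' normalized values (difference -1.58, adjusted p = 0.0752), with no filter on dim probes (adjusted p = 0.0859) and with trend and robust moderation (adjusted p = 0.114). It was 0 throughout when a kidney was left out. Over all alternatives the Egr1 difference lay between -2.08 and -1.58. The count of 6 factors in WT/HT against WT/KID was 3 when arrays were only centred on their median, where Jun, Atf3 and Klf6 were lost, and 3 to 6 when 1 array was left out, the lowest without WT/HT replicate 3. The count of 4 in KO/HT against KO/KID became 4 to 6 in that way. The interaction count of 0 was 0 to 1, with Egr1 called without WT/HT replicate 1, and the heart count was 0 throughout. In WT/HT against WT/KID, Egr1 ranged over -0.66 to 0.058 with 1 array left out and was called at -0.66 (adjusted p = 0.0392) without WT/HT replicate 1. Jund in the hearts ranged over -0.048 to 0.24 in the same way. Centring alone moved the median of all probes by 0.12 in the kidneys and by -0.14 between knockout organs, and gave 0.0059 for Jund in the kidneys and -0.028 for Junb in KO/HT against KO/KID. It called 2455 probes higher and 89 lower in KO/KID, against 48 and 60 after quantile normalization. With neqc background correction the dim genes spread out, with 2.00 for Klf4 in both organ comparisons and 1.70 for Fos in KO/HT against KO/KID, where Fos was called (adjusted p = 0.0180). Fos was also called there in a fit of only these groups (adjusted p = 0.0109). The cause of these changes was not tested. Leaving out 1 array aside, 269 of the other values kept direction and call, 9 lost the call, 4 gained it and 2 changed sign. No direction was given to 18 of 45 differences within 1 SE of 0. Samples that share a replicate number did not clearly deviate together over probes, so the numbers were not taken as pairs. For heart and kidney of the same number, r was -0.11 to 0.21 in the knockout and -0.07 to 0.06 in the wildtype animals. Between KO/KID and WT/KID, which are different mice, it was -0.20 to 0.19. With the replicate block, 1 factor was called in the kidneys, 0 in the hearts, 5 and 6 between the organs and 0 for the interaction, and Atf3 was added in KO/HT against KO/KID (adjusted p = 0.0462). Signal close to the background limits Fos, Fosb and Atf3 in the kidneys.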
